A study of Mus musculus with 4 samples.

Results

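A set of 10 genes that make or use nicotinamide adenine dinucleotide (NAD) was followed through the cell classes of mouse hearts in which Pkp2 had been targeted and of control hearts. They are Nmrk2, Nampt, Nmnat1, Nmnat2, Nmnat3 and Nadsyn1, which make NAD, and Nnmt, Parp1, Cd38 and Sirt1, which use NAD or its precursor nicotinamide. All 10 of 10 symbols were found among the 44628 gene identifiers of the files. The genes were chosen by symbol, selected on earlier results of the same data in which the level of Nmrk2 in cardiomyocytes was already known to differ between the groups. In the cardiomyocyte comparison their values are therefore a description, given without a test, and nothing is supported with them.

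The 2 libraries labelled cKO came from PKP2fl/fl mice carrying MCM cre/+, and the 2 control libraries from MCM cre/+ mice whose genotype label reads wt. MCM is a Cre recombinase switched on by tamoxifen, which in PKP2fl/fl mice is meant to delete the Pkp2 gene. Mice of both groups received tamoxifen, the age label reads 8 weeks, and hearts were taken 2 weeks after injection. Each library pooled 2 hearts, so a library is the replicate (n = 2 per group), and the spread within a group is that between pools. Its product, plakophilin 2, belongs to the desmosome, the junction that couples heart muscle cells to each other. The sample labels give cardiomyocyte as the cell type, but all 12 fibroblast, 12 endothelial, 15 mural and 12 macrophage markers were at over 2 times their level elsewhere in the classes named after them, as were all 14 cardiomyocyte markers in cardiomyocytes.

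NAD carries electrons in energy metabolism and is also consumed by enzymes that split off nicotinamide. Cells recycle that nicotinamide through Nampt, which makes nicotinamide mononucleotide, or make the same mononucleotide from the vitamin nicotinamide riboside through the riboside kinases Nmrk1 and Nmrk2. The Nmnat enzymes then turn the mononucleotide into NAD. Heart muscle depends on a large NAD pool for its mitochondria, and Nmrk2, which is found mainly in muscle, is known to be switched on in stressed and failing mouse hearts.

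The start of Nmrk2 is shown because this gene carries the largest difference among the members. Nmrk2 (ENSMUSG00000004939.8) lies on the minus strand of GRCm38 chromosome 10, at 81198170 to 81202051 in GENCODE M21, and overlaps the antisense gene Atcayos on the other strand. The 250 bases before its RefSeq start (GRCm38.p6, chr10:81202038-81202287, minus strand) read as follows, with capitals for a GC box, GGGCGG, and a TATA box, TATAAA.
Nmrk2 promoter: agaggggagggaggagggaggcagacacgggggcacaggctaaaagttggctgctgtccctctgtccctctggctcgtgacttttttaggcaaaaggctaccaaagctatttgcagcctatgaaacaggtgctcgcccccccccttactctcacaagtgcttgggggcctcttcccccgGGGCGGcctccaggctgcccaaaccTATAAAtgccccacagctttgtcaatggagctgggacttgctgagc
The TATA box begins 46 bases and the GC box 71 bases before the RefSeq start. The GENCODE M21 start, at 81202051, falls inside the printed bases, so the last of them lie within the GENCODE gene. Both boxes lie before the GENCODE start as well, but closer to it. Searched on both strands, TATAAA was found in 12.97% and GGGCGG in 32.9% of 27025 promoters of that length. The TEAD motif CATTCC, the AP-1 motif TGANTCA, the CRE motif TGACGTCA, the CCAAT box, the E-box CACGTG and a CArG box were not found in this window; they occur in 12.6%, 6.87%, 1.62%, 34.5%, 6.05% and 1.40% of the same promoters. These matches are descriptions of letters, not of sites in use.

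The cKO libraries held 8424 and 14238 barcodes with 20992683 and 40536562 UMIs (unique molecular identifiers, each standing for 1 counted RNA molecule), and the control libraries 5947 and 13097 barcodes with 13491201 and 35204091 UMIs. Filtering left 3642 and 6268 cKO nuclei and 2805 and 6024 control nuclei, and no barcode was shared between libraries. Pkp2 in cardiomyocytes measured 615 and 591 CPM (the class count scaled to library size) in cKO against 569 and 558 CPM in control libraries (log2 fold change 0.10, SE 0.14, edgeR adjusted p = 0.845). Where the loxP sites lie within the gene is not stated, so this count does not check the deletion. Esr1, part of which MCM transgenes carry, measured 3592 and 3359 CPM in cKO and 77.1 and 63.7 CPM in control cardiomyocytes, so the groups may differ in the Cre transgene as well as in Pkp2, and the effects of both cannot be told apart. Although each pool is described as 1 male and 1 female mouse, Xist, which is transcribed in female cells, gave 13 and 28 UMIs in the cKO and 7 and 22 in the control libraries, while genes of the Y chromosome summed to 9053 and 17307 UMIs in the cKO and 5625 and 13669 in the control libraries.

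Nmrk2 was the member that stood apart. In cardiomyocytes it measured 26.8 and 15.5 CPM in the cKO libraries, from 147 and 131 UMIs, against 2.62 and 1.86 CPM in the control libraries, from 13 and 20 UMIs. Both cKO libraries were far above both control libraries, and the cKO libraries differed from each other by more than the control libraries did. The log2 fold change was 3.28 (SE 0.37, no test). In cardiomyocytes 186 of 15416 genes rose in cKO libraries, which is 1.21%, and 235 fell, which is 1.52% (edgeR quasi-likelihood test, adjusted p under 0.05). Nothing is read from where Nmrk2 stands among them, since this contrast selected it. Here and below, a class total cannot separate fewer cells that express a gene from less RNA per cell.

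Outside cardiomyocytes Nmrk2 was near the detection limit, and in none of those classes had it enough counts for a test. It gave 0 and 8 UMIs in cKO and 0 and 2 in control fibroblasts, and 5 and 5 in cKO and 0 and 3 in control endothelial nuclei. Mural nuclei (pericytes and smooth muscle) gave 0 and 2 UMIs in cKO and 1 and 1 in control libraries, and macrophages 3 and 6 in cKO and 0 and 2 in control libraries. Cardiomyocyte RNA was counted in these nuclei too. The 14 cardiomyocyte markers together made up 5056 to 10046 CPM in the 4 other classes, against 62394 to 65705 CPM in cardiomyocytes, and the part of such RNA in the Nmrk2 UMIs was not tested.

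Nmrk2 was counted in a small share of cardiomyocyte nuclei. At least 1 UMI was found in 54 of 1202 (4.49%, exact binomial 95% interval 3.39 to 5.82%) and 58 of 1560 (3.72%, 2.84 to 4.78%) cKO nuclei, and in 8 of 1443 (0.554%, 0.24 to 1.09%) and 13 of 2542 (0.511%, 0.273 to 0.873%) control nuclei. The intervals cover counting error only. Cardiomyocyte nuclei were deeper in the cKO libraries, with medians of 4290 and 5286 UMIs against 3176 and 3948 UMIs in the control libraries. With every nucleus thinned to 1000 UMIs, the shares were 1.68% and 1.12% in cKO and 0.216% and 0.135% in control libraries, after leaving out 114 and 106 cKO and 60 and 70 control nuclei that were shallower. Fibroblasts, which served as the class expected to lack the gene, had shares of 0% and 0.588% in cKO and 0% and 0.172% in control libraries before thinning, at median depths of 1446 and 2100 UMIs and of 1070 and 1575 UMIs. The thinned fibroblast shares were 0% and 0.211% in cKO and 0% and 0.147% in control libraries, and the thinned shares of the endothelial, mural and macrophage nuclei ran over 0% to 0.524%. The control cardiomyocytes lay within this background and the cKO cardiomyocytes above it.

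The Nmrk2 UMIs were concentrated in few nuclei. In the cKO libraries 13 and 16 nuclei with 3 or more UMIs held 66.0% and 59.5% of all Nmrk2 UMIs of the class, and the highest nucleus had 20 UMIs in cKO 1 and 10 in cKO 2. In the control libraries 2 and 2 such nuclei held 53.8% and 40.0% of the few UMIs. Nmnat1, with a similar number of UMIs in cKO 1 (142 against 147 for Nmrk2), was spread over 120 nuclei there against 54 for Nmrk2, and nuclei with 3 or more UMIs held 6.34% of its total.

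In cardiomyocyte clusters 0, 2 and 11 Nmrk2 was higher in both cKO libraries than in both control libraries, but not in cluster 4. Cardiomyocytes fell into 4 clusters whose shares differed between the groups. Cluster 0 held 26.7% and 20.4% of cKO and 51.2% and 53.1% of control cardiomyocytes, and there Nmrk2 measured 19.0 and 10.2 CPM in cKO against 1.26 and 1.10 CPM in control libraries. Cluster 2 held 8.07% and 7.44% of cKO and 42.8% and 43.0% of control cardiomyocytes, with 25.2 and 8.13 CPM in cKO and 2.95 and 1.16 CPM in control libraries. Values within clusters are scaled to raw totals. In clusters 0 and 2 both cKO values lay above both control values, on 5 to 25 cKO and 3 to 7 control UMIs.

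Cluster 4, led by Esr1 and the fetal myosin gene Myh7, was mostly cKO. It held 55.5% and 61.6% of cKO cardiomyocytes at 28.3 and 14.2 CPM of Nmrk2. Its 29 and 31 control nuclei gave 0 and 5 UMIs, or 0 and 44.9 CPM. Control 2 thus lay above both cKO libraries in this cluster, on few nuclei and UMIs. Cluster 11, with the wall-stress peptide gene Nppb and the stress cytokine gene Gdf15 among its 5 leading genes, had the highest cKO levels. There Nmrk2 measured 41.3 and 37.4 CPM in cKO, on 27 and 35 UMIs. The control libraries had 13.6 and 9.20 CPM, on only 3 and 3 UMIs. The clusters were built from all genes, so their differences are a description.

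Nmrk2 was higher in cardiomyocyte nuclei that also carried Nppb. Among nuclei with at least 3000 UMIs, it measured 32.9 CPM in nuclei with an Nppb UMI and 12.8 CPM in those without in cKO 1, and 19.4 and 7.90 CPM in cKO 2. In the control libraries the same nuclei gave 4.26 and 1.18 CPM in control 1 and 3.71 and 1.41 CPM in control 2, on 3 to 10 UMIs each. Nuclei with Nppb were also deeper, with medians of 5133 and 6292 UMIs against 4584 and 5419 UMIs without it in the cKO libraries, and the part of depth was not tested. Even cKO nuclei without Nppb UMIs were above control nuclei with them. Split by Esr1 instead, Nmrk2 measured 30.2 CPM with and 22.3 CPM without Esr1 UMIs in cKO 1, and 16.9 and 14.2 CPM in cKO 2. In the control libraries it measured 1.91 CPM with and 2.20 CPM without Esr1 UMIs in control 1, on 1 and 7 UMIs, and 5.61 and 1.27 CPM in control 2, on 9 and 10 UMIs. A nucleus without an Esr1 UMI is not shown to lack the transgene.

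**Figure D1:**
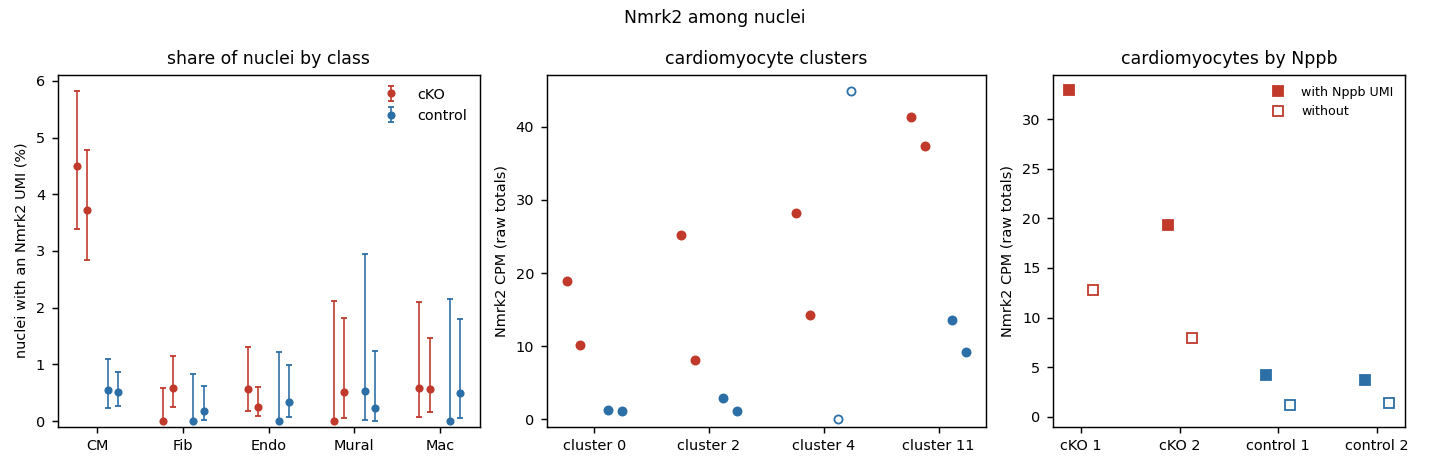
Nmrk2 among nuclei of the 2 cKO (red) and 2 control (blue) libraries. Left, the percent of nuclei with at least 1 Nmrk2 UMI in each class, before thinning, with its exact binomial 95% interval. CM is cardiomyocyte, Fib fibroblast, Endo endothelial and Mac macrophage. The cKO cardiomyocytes are at 4.49% and 3.72%, and their nuclei were deeper than those of the control libraries. The intervals cover counting error among nuclei only, not the spread between pools, so they do not compare the groups. Middle, Nmrk2 CPM in the 4 cardiomyocyte clusters, with open circles for points from under 50 nuclei; right, Nmrk2 CPM in cardiomyocyte nuclei of at least 3000 UMIs with (filled) and without (open) an Nppb UMI, where the filled square is the higher in each of the 4 libraries.

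By a rule based on likeness alone, the genes whose log2 CPM followed that of Nmrk2 most closely over the 20 sums of 5 classes and 4 libraries were Ankrd45, Bri3, Atp6v1h, Aopep and Gm16248. Their Pearson correlations with Nmrk2 were 0.86, 0.84, 0.83, 0.83 and 0.83, the highest among 15416 genes. The Spearman correlations were lower, at 0.79, 0.67, 0.74, 0.71 and 0.73. Sums of 1 library share their depth and preparation, and the low Nmrk2 counts outside cardiomyocytes enter all of them. In cardiomyocytes these genes had log2 fold changes of 1.95 for Ankrd45, 0.86 for Bri3, 0.81 for Atp6v1h, 0.48 for Aopep and 1.49 for Gm16248. Nmrk2 was highest in cKO cardiomyocytes, so genes picked for likeness to it were bound to lean to the same side. Nothing is read from these signs.

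Nampt, the rate-limiting enzyme of nicotinamide recycling, was found in every class and was highest in cardiomyocytes, while the ranges of the 4 other classes overlapped. In cardiomyocytes it measured 155 and 166 CPM in cKO against 217 and 214 CPM in control libraries, so both cKO libraries were below both control libraries, the opposite side from Nmrk2 (log2 fold change -0.42, SE 0.14, no test). Groups that did not overlap were common in cardiomyocytes, at 43.0% of the 15416 genes, and 4 of the 8 members with enough counts showed this, a share near that background.

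In fibroblasts Nampt measured 74.0 and 73.6 CPM in cKO against 107 and 112 CPM in control libraries. The difference did not pass the test without a block (log2 fold change -0.57, SE 0.22, edgeR adjusted p = 0.216). With the replicate number as a block it did pass, though the labels do not say that the numbers pair the samples. In macrophages it was on the other side, at 132 and 104 CPM in cKO and 86.3 and 63.0 CPM in control libraries, and did not pass the test either (0.71, SE 0.32, adjusted p = 0.352). The groups overlapped in endothelial nuclei, with 68.9 and 80.5 CPM in cKO and 80.0 and 60.7 CPM in control libraries (0.16, SE 0.25, adjusted p = 0.933). They also overlapped in mural nuclei, with 104 and 90.1 CPM in cKO and 91.8 and 101 CPM in control libraries (-0.03, SE 0.32, adjusted p = 1.00).

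The cKO effect on Nampt differed among these 4 classes when tested directly (edgeR interaction of class and group with library as a term, adjusted p = 0.00291), as it did for 1021 of 12214 genes, or 8.36%. The effect was positive in macrophages and negative in fibroblasts. This call was lost without the library term (adjusted p = 0.27) and without control 2 (adjusted p = 0.558). Since Nampt was highest in cardiomyocytes, their marker RNA is given beside it. The cardiomyocyte markers made up 7240 and 5928 CPM of macrophage RNA in cKO and 10046 and 7618 CPM in control libraries. In fibroblasts they made up 6661 and 5056 CPM in cKO and 7219 and 6506 CPM in control libraries, and their part in the Nampt levels of either class was not tested.

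**Figure D2:**
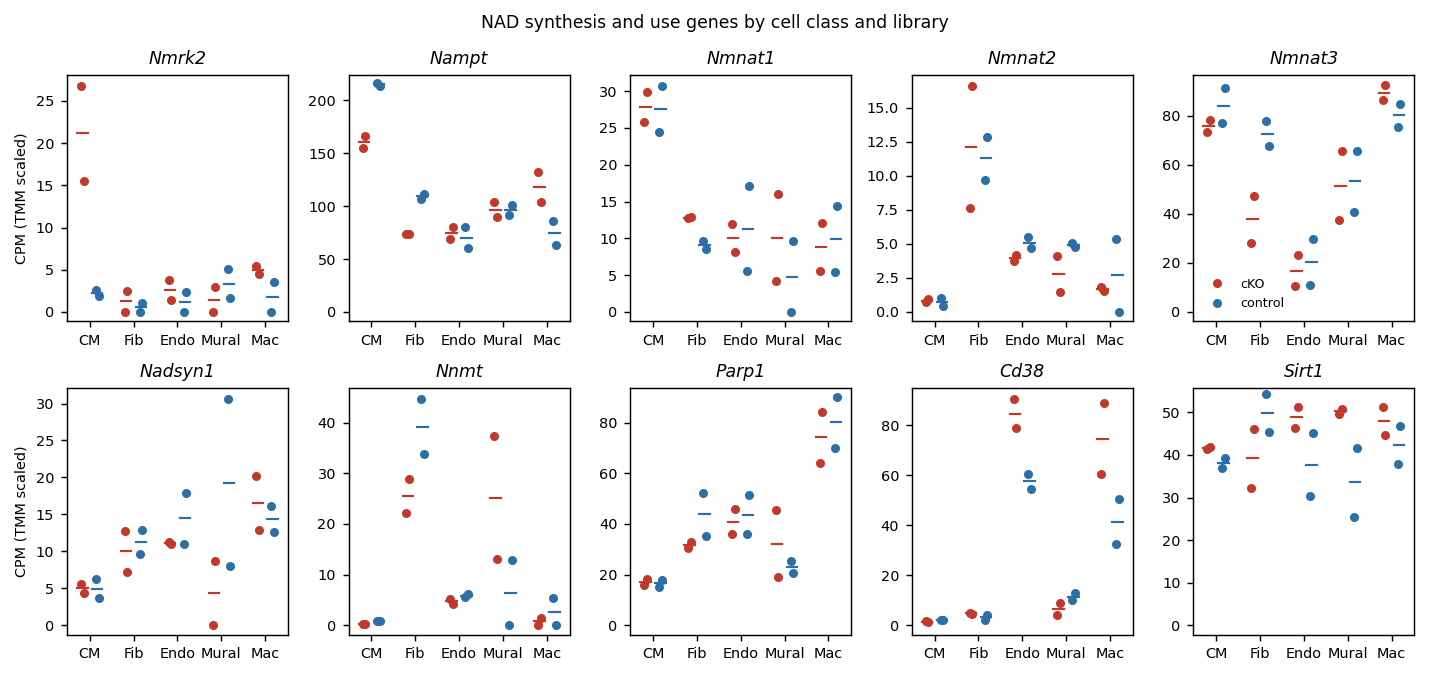
Levels of the 10 genes in CPM with TMM scaling in 5 cell classes (CM cardiomyocyte, Fib fibroblast, Endo endothelial, Mural, Mac macrophage). Each point is 1 library, cKO in red and control in blue, and each bar is the mean of 2. Nmrk2 stands out in cKO cardiomyocytes, and Cd38 is found mainly in endothelial nuclei and macrophages. Nampt lies lower in cKO than in control cardiomyocytes and fibroblasts. That difference was not tested in cardiomyocytes, and it did not pass the test in fibroblasts without a replicate block. Each panel has its own scale.

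The Nmnat enzymes carry out the last step to NAD in different compartments: Nmnat1 in the nucleus, Nmnat2 on Golgi and vesicle membranes, and Nmnat3 in mitochondria. Nmnat1 was highest in cardiomyocytes, at 25.9 and 29.9 CPM in cKO and 24.4 and 30.7 CPM in control libraries, and the groups overlapped there (log2 fold change 0.01, SE 0.20, no test). In fibroblasts it measured 12.8 and 12.8 CPM in cKO and 9.70 and 8.56 CPM in control libraries, on 5 to 41 UMIs (0.52, SE 0.45, adjusted p = 0.691). In endothelial nuclei the groups overlapped (-0.52, SE 0.51, adjusted p = 0.856), and mural nuclei and macrophages had too few counts.

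Nmnat2, best known for keeping axons alive, was almost missing from cardiomyocytes, with 4 and 8 UMIs in cKO and 5 and 5 in control libraries. Fibroblasts had the most, at 7.66 and 16.6 CPM in cKO and 9.70 and 12.8 CPM in control libraries (0.14, SE 0.47, adjusted p = 0.947). In the remaining classes it reached at most 5.52 CPM.

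Nmnat3 had overlapping ranges in cardiomyocytes, macrophages and control fibroblasts, and was on average lowest in endothelial nuclei, whose range overlapped that of fibroblasts. In cardiomyocytes it measured 73.3 and 78.4 CPM in cKO and 76.9 and 91.2 CPM in control libraries (-0.15, SE 0.15, no test). In fibroblasts it measured 28.1 and 47.3 CPM in cKO against 77.6 and 67.4 CPM in control libraries. The difference did not pass the test with all 4 libraries and no block (-0.86, SE 0.28, adjusted p = 0.138). It did pass with the replicate number as a block, though nothing in the labels says that the numbers pair the samples. Without cKO 2, which leaves 1 cKO library, the log2 fold change was -1.35. The groups overlapped in endothelial and mural nuclei (-0.40, SE 0.44, adjusted p = 0.872 and -0.05, SE 0.39, adjusted p = 1.00), and in macrophages the values were 86.2 and 92.6 CPM in cKO and 75.5 and 84.6 CPM in control libraries (0.14, SE 0.30, adjusted p = 0.912).

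The fibroblasts of the groups also lay in different clusters. Cluster 3, with the adventitial fibroblast gene Scara5 among its leading genes, held 16.2% and 21.0% of cKO and 92.1% and 94.2% of control fibroblasts. Cluster 5, led by the matrix genes Postn and Cilp, held 83.1% and 72.9% of cKO and 7.64% and 5.67% of control fibroblasts. In cluster 3 alone, Nmnat3 measured 57.6 and 75.8 CPM in cKO and 85.7 and 64.5 CPM in control libraries, and Nampt 86.4 and 105 CPM in cKO and 109 and 104 CPM in control libraries, so both overlapped. In cluster 5 the cKO libraries had 24.7 and 40.1 CPM of Nmnat3, and the 34 and 66 control nuclei there gave 0 and 8 UMIs. The clusters used the same genes, so this is a description of where the lower class totals lay.

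Nadsyn1, the NAD synthetase that ends the routes from tryptophan and nicotinic acid, was low everywhere and lowest in cardiomyocytes, whose range lay below those of fibroblasts, endothelial nuclei and macrophages and overlapped only that of mural nuclei. In cardiomyocytes it measured 5.65 and 4.39 CPM in cKO and 6.25 and 3.63 CPM in control libraries (0.07, SE 0.37, no test). In fibroblasts and endothelial nuclei the groups overlapped (-0.36, SE 0.48, adjusted p = 0.846, and -0.52, SE 0.43, adjusted p = 0.821), and in mural nuclei and macrophages it had too few counts.

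Nnmt, which methylates nicotinamide and so takes it out of recycling, was highest in fibroblasts, with mural nuclei overlapping their range and the other classes at 0 to 6.22 CPM. It measured 22.1 and 28.8 CPM there in cKO and 44.6 and 33.7 CPM in control libraries, and the lower cKO values did not pass the test (-0.53, SE 0.31, adjusted p = 0.502). Cardiomyocytes had 1 and 2 UMIs in cKO and 4 and 10 UMIs in control libraries, and mural nuclei 9 and 9 UMIs in cKO and 0 and 8 UMIs in control libraries, all too few for a test.

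Parp1, which spends NAD on poly(ADP-ribose) chains at DNA breaks, was highest in macrophages and by CPM lowest in cardiomyocytes, just below mural nuclei, which ranged over 18.9 to 45.6 CPM. Macrophages had 64.2 and 84.3 CPM in cKO and 70.1 and 90.0 CPM in control libraries (-0.13, SE 0.32, adjusted p = 0.923). Cardiomyocytes had 15.9 and 18.4 CPM in cKO and 15.1 and 18.0 CPM in control libraries (0.04, SE 0.21, no test). Fibroblasts had 30.6 and 32.9 CPM in cKO and 52.4 and 35.3 CPM in control libraries (-0.37, SE 0.29, adjusted p = 0.656). The groups overlapped in endothelial (-0.15, SE 0.29, adjusted p = 0.941) and mural nuclei (0.33, SE 0.59, adjusted p = 1.00).

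Cd38, a surface enzyme that degrades NAD and is known from immune and endothelial cells, was found in endothelial nuclei and macrophages and near 0 elsewhere. Endothelial nuclei had 90.6 and 78.9 CPM in cKO and 60.7 and 54.4 CPM in control libraries. Macrophages had 60.5 and 88.8 CPM in cKO and 32.4 and 50.4 CPM in control libraries. Neither difference passed the test (endothelial 0.57, SE 0.25, adjusted p = 0.538, and macrophage 0.78, SE 0.37, adjusted p = 0.385). Cardiomyocytes gave 9 and 10 UMIs in cKO and 10 and 23 in control libraries (-0.59, SE 0.46, no test).

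Cd38 was not tested within clusters, so its values there are a description. Among macrophages, cluster 7 has the resident-macrophage gene Cd163 among its leading genes. That cluster held 35.4% and 48.2% of cKO and 91.1% and 88.7% of control macrophages, and Cd38 measured 96.6 and 152 CPM there in cKO against 35.0 and 45.0 CPM in control libraries, on 16 and 95 and on 6 and 24 UMIs. Cluster 9, with the monocyte receptor gene Ccr2 and Gpnmb among its leading genes, held the other cKO macrophages, with Cd38 at 43.1 and 28.7 CPM in cKO (17 and 22 UMIs) and 0 and 57.9 CPM in control libraries (0 and 4 UMIs from 15 and 45 nuclei). In the largest endothelial cluster, cluster 1, Cd38 measured 100.5 and 93.7 CPM in cKO and 54.9 and 57.6 CPM in control libraries. Cluster 8 lay on the same side, at 93.7 and 54.7 CPM in cKO and 21.2 and 26.5 CPM in control libraries (1 and 5 UMIs). Cluster 10, with Nrg1 and the endocardial gene Npr3 among its leading genes, lay on the other side, at 53.1 and 37.7 CPM in cKO and 78.5 and 60.0 CPM in control libraries, and in cluster 15 the groups overlapped.

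Sirt1, a deacetylase that consumes NAD, was found at overlapping ranges of levels in all 5 classes. Cardiomyocytes had 41.4 and 41.9 CPM in cKO and 36.9 and 39.4 CPM in control libraries (0.12, SE 0.16, no test). In the other classes its libraries ranged over 25.5 to 54.3 CPM, and no difference passed the test (fibroblast -0.27, endothelial 0.29, mural 0.46 and macrophage 0.11, with SE of 0.28, 0.28, 0.42 and 0.36 and adjusted p of 0.763, 0.854, 1.00 and 0.946).

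**Figure D3:**
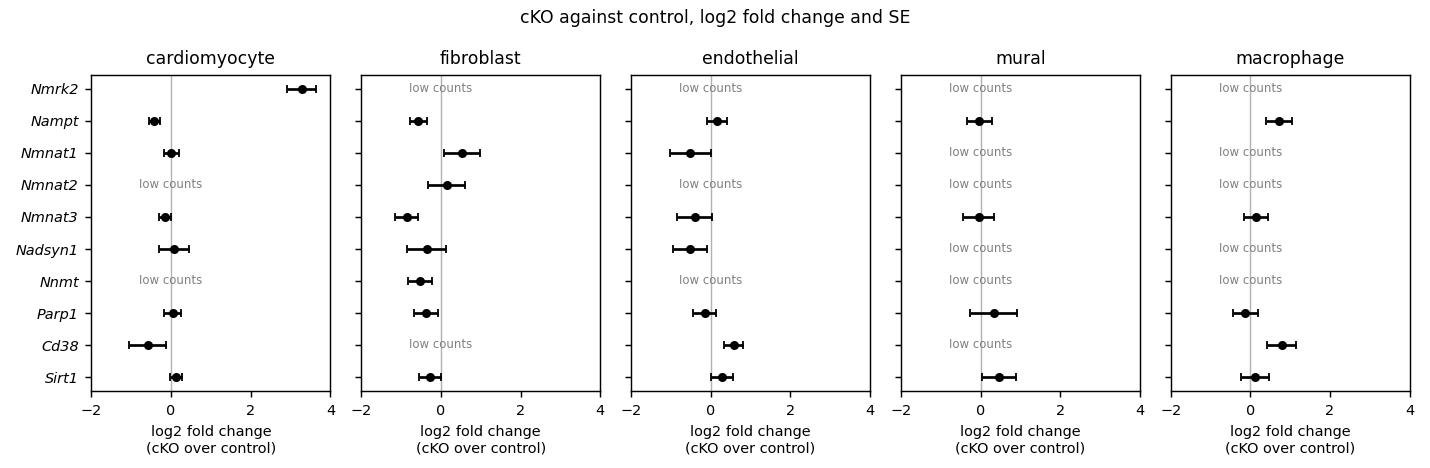
Log2 fold change of each gene, cKO over control, with its SE from edgeR, in 5 classes; genes marked low counts had too few UMIs to be fitted. Nmrk2 in cardiomyocytes, at 3.28, is far to the right of all other values, which lie between -0.86 and 0.78.

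Across the 4 other classes no member passed the threshold by edgeR without a replicate block. Fitted were 8 in fibroblasts, 7 in endothelial nuclei, 5 in macrophages and 4 in mural nuclei. At an unadjusted p under 0.05 there were 2 in fibroblasts, where 1709 of 11988 genes had one, 1 in endothelial nuclei, where 966 of 11282 had one, 1 in macrophages, where 1157 of 8885 had one, and 0 in mural nuclei, and DESeq2 called 0 in each class. Over all genes, 2.62% rose and 1.56% fell in fibroblasts, 0.0709% rose and 0.106% fell in endothelial nuclei, 1.34% rose and 1.2% fell in macrophages, and 0.0% passed in either direction in mural nuclei, where 416 genes had an unadjusted p under 0.05 and DESeq2 called 0. The class totals behind these fits ran over 5050387 to 11080349 UMIs per library in cardiomyocytes, 520441 to 3286574 in fibroblasts, 365242 to 3712894 in endothelial nuclei, 193902 to 1394316 in macrophages and 207734 to 746289 in mural nuclei.

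For 61 other genes of NAD metabolism, counts are set beside the shares over all genes. In cardiomyocytes 49 were fitted and 0 passed by edgeR, where 1.21% of all genes rose and 1.52% fell. At an unadjusted p under 0.05 there were 5, where 2198 of 15416 genes had one, and DESeq2 called 0. The median log2 fold change was 0.03, against 0.00 over all genes. The 49 were 8 supply genes, 10 of phosphorylation, transport and turnover, 6 sirtuins, 21 genes of the PARP family and ADP-ribose turnover, and 4 glycohydrolases and ADP-ribosyltransferases. Nmrk1, the other riboside kinase, is named after its values were seen: it measured 17.7 and 15.9 CPM in cKO and 13.3 and 13.6 CPM in control cardiomyocytes (0.31, SE 0.20, adjusted p = 0.573).

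In fibroblasts 46 of the 61 were fitted, 0 rose and 2 fell, where 2.62% of all genes rose and 1.56% fell. At an unadjusted p under 0.05 there were 9, where 1709 of 11988 genes had one. The 2 that fell were both aldehyde oxidases, which oxidise the methylated nicotinamide that Nnmt makes. Aox3 measured 0.851 and 2.51 CPM in cKO and 9.70 and 29.98 CPM in control libraries, on 1 and 8 against 5 and 56 UMIs (-3.47, SE 0.62, adjusted p = 0.00577). It had too few counts to be fitted without control 2. Aox1 measured 81.7 and 80.8 CPM in cKO and 186 and 175 CPM in control libraries (-1.15, SE 0.21, adjusted p = 0.00707), and it passed under every alternative fit tried. The median over the 46 was -0.14, against 0.01 over all genes.

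In macrophages 42 were fitted, 0 rose and 1 fell, where 1.34% of all genes rose and 1.2% fell. At an unadjusted p under 0.05 there were 6, where 1157 of 8885 genes had one. The 1 that fell was Slc29a1, a nucleoside transporter. Its levels were 82.5 and 49.3 CPM in cKO and 194 and 153 CPM in control libraries (-1.42, SE 0.32, adjusted p = 0.0338). The call was lost without cKO 2 (-1.04, adjusted p = 0.478), by DESeq2 (-1.38, adjusted p = 0.136) and with classes set by marker UMIs without clustering (-1.24, adjusted p = 0.0815). In endothelial nuclei 48 and in mural nuclei 35 were fitted, and 0 passed by edgeR or DESeq2. Of all genes, 0.0709% rose and 0.106% fell in endothelial nuclei, and 0.0% passed in mural nuclei. At an unadjusted p under 0.05 there were 5 in endothelial nuclei, where 966 of 11282 genes had one. Mural nuclei had 1, where 416 of 7715 genes had one. The medians were -0.08 in endothelial nuclei against 0.01 over all genes, -0.11 in mural nuclei against 0.00, and -0.03 in macrophages against 0.01.

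**Figure D4:**
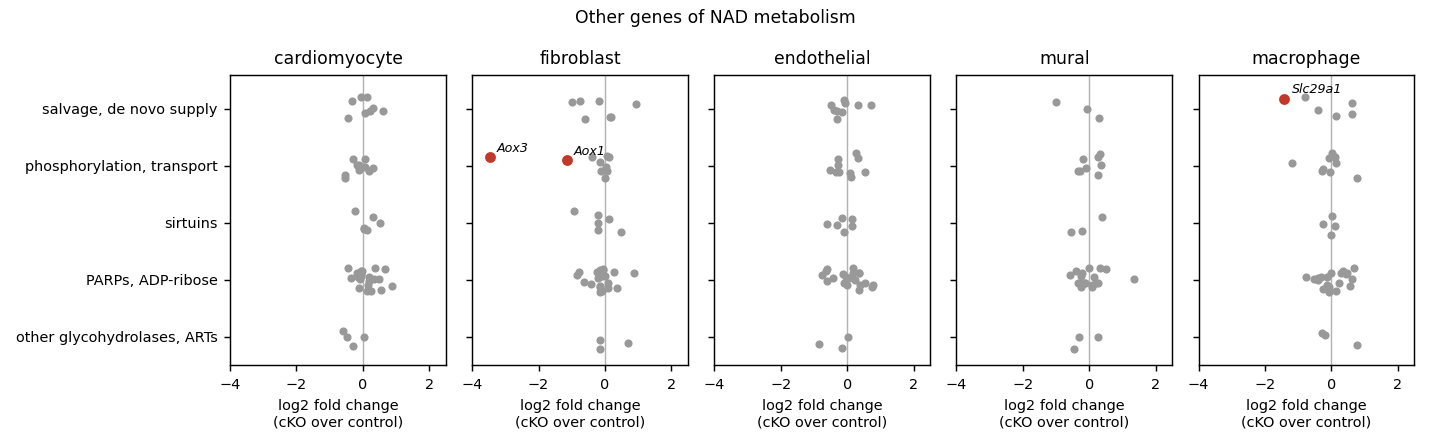
Log2 fold change, cKO over control, of the other genes of NAD metabolism in 5 classes, 1 point per fitted gene, grouped by role (ARTs are ADP-ribosyltransferases). Red marks the genes with an edgeR adjusted p under 0.05, Aox3 and Aox1 in fibroblasts and Slc29a1 in macrophages, all lower in cKO; grey points did not pass.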

How the data were processed

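Single-nucleus RNA libraries of mouse heart were made on the BD Rhapsody platform, per the labels' descriptions. As deposited by the authors, each matrix holds raw UMI counts (whole numbers, not scaled), per the file headers. The submitters' processing notes name mm10 as the build; aligner, annotation, strand setting and handling of introns are not given. Of 44628 identifiers 27178 matched GENCODE M21 (GRCm38). Of the 10 genes, 8 overlap another annotated gene, and reads of overlapping or antisense genes may have been counted for either.

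Nuclei with at least 300 genes, at least 500 UMIs and at most 5% mitochondrial UMIs were kept, without the 0.5% of barcodes with the most UMIs. The mitochondrial limit left out 48.8% to 53.8% of barcodes per library. Scrublet scores (scanpy 1.11.5, 6% expected) marked doublets, and the top 6% were removed where its threshold marked under 0.5%. Removal was therefore uneven, at 13.5% in cKO 2 against 5.99% in cKO 1, 6.00% in control 1 and 5.99% in control 2. Nuclei were clustered from 2000 genes, 30 components and 15 neighbours (leidenalg 0.10.2, resolution 1, seed 1) and classed by marker lists: at least 3 markers, each in at least 10% of nuclei, over 2 times the median cluster and at least 25% of the top cluster. That naming rule was written after the data were seen, and classes are nuclei like those types. Clusters that the rule left unnamed held 315 and 155 cKO and 232 and 519 control nuclei, which are in none of the classes.

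UMI counts were summed per library and class and tested with edgeR 4.0.16 (quasi-likelihood test, TMM scaling, edgeR's expression filter, Benjamini-Hochberg adjustment over all genes of a class, threshold 0.05). CPM by class are TMM scaled, and values within clusters or splits use raw totals. SE is the size of the log2 fold change divided by the root of the test's F. The step was tested on simulated data. Alternatives were DESeq2 1.42.0, RLE size factors, no low-count filter, the replicate number as a block, each library left out, other nucleus filters and classes by marker UMIs without clustering. Likeness to Nmrk2 used log2 CPM with a prior count of 2. The 10 genes and all lists were chosen with earlier results of these data known. Named genes were the 10, those of the other NAD lists past the threshold (at most 8 per class), the 5 most like Nmrk2, Pkp2, Esr1 and Xist as checks of the labels, and Ttn, Myh6 and Tnnt2, which are not listed singly but within the cardiomyocyte markers; genes that lead clusters, and Nmrk1, were named after their values were seen. Replicates R1 and R2 of the groups share numbers, but nothing in the labels says that a number marks a shared litter, batch or day.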

Additional observations from a re-analysis of the deposited data

Results flagged for a closer look

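The cKO effect on Nampt differed among fibroblast, endothelial, mural and macrophage nuclei in a direct test of that difference (edgeR interaction with library as a term, adjusted p = 0.00291). The log2 fold changes were 0.71 in macrophages, 0.16 in endothelial, -0.03 in mural and -0.57 in fibroblast nuclei. None of them passed the test within its class without a replicate block. The difference was called for 8.36% of the 12214 genes fitted. It was kept with RLE size factors (adjusted p = 0.00399), without the clusters led by Il6 (0.00386), and without cKO 1 (0.0182), cKO 2 (0.0246) or control 1 (0.00221). It was lost without control 2 (0.558) and without the library term (0.27). The part of the changed cluster make-up of fibroblasts and macrophages in it was not tested. The setting without the clusters led by Il6 was added after the clusters were seen, and those clusters came almost wholly from cKO 2. Endothelial cluster 16 held 3 and 195 cKO and 0 and 1 control nuclei. Fibroblast cluster 21 held 4 and 83 cKO and 1 and 1 control nuclei. For the other members fitted, adjusted p ran over 0.179 to 0.925.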

How the results depend on the processing

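Nmrk2 in cardiomyocytes kept its direction under all 12 alternatives, at 2.84 to 3.62 on the log2 scale, with 2.84 to 3.62 also the range without 1 library. This contrast selected Nmrk2 and the alternatives reuse the same libraries, so nothing is read from the kept direction. Nampt in cardiomyocytes stayed between -0.48 and -0.38. Counts of called genes moved more. In cardiomyocytes 421 became 828 without the low-count filter and 441 to 665 without 1 library (665 without control 1). In fibroblasts 501 became 333 by DESeq2 and 328 to 614 without 1 library (328 without control 2). In endothelial nuclei 20 became 41 by DESeq2, 90 without the filter, 39 at the 20% mitochondrial limit, 253 with classes by marker UMIs, 12 without the clusters led by Il6 and 41 to 88 without 1 library. In mural nuclei 0 became 13 without the filter, 11 at 1000 UMIs or more, 5 with classes by marker UMIs and 0 to 29 without 1 library. In macrophages 226 became 96 by DESeq2, 426 at the 20% limit, 119 with classes by marker UMIs and 0 to 256 without 1 library (0 without cKO 2, 112 without control 2). The interaction count of 1021 became 98 without the library term and 376 to 797 without 1 library. The cause of these moves was not tested. Aox3 had too few counts to be fitted at 1000 UMIs or more, with classes by marker UMIs and without control 2. Mural nuclei were not fitted without doublet removal, since a library held under 20 nuclei.

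With the replicate number as a replicate block, 3934, 2154, 985, 189 and 1095 genes passed in cardiomyocyte, fibroblast, endothelial, mural and macrophage nuclei, and 2 members in fibroblasts, Nampt (-0.58, adjusted p = 0.00253) and Nmnat3 (-0.77, adjusted p = 0.000861). Of the 61 other NAD genes, 15, 9, 7, 2 and 5 passed in these classes under the block, against 0, 2, 0, 0 and 1 without it. Deviations of same-numbered libraries correlated at 0.25 to 0.47 across genes, but 2 pairs do not show that the numbers pair the samples.

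In cardiomyocytes, where members were not tested, signs turned over the 12 alternatives for Nmnat1 (-0.13 to 0.19), Nadsyn1 (-0.34 to 0.45) and Parp1 (-0.085 to 0.18). In the other classes signs of uncalled members turned as follows; none of these values passed the test. Without 1 library each, the log2 ranges were -0.63 to 0.48 for Nmnat2 and -0.71 to 0.095 for Nadsyn1 in fibroblasts (0 to 1 members passed there); -0.073 to 0.32 for Nampt, -0.83 to 0.81 for Nmnat1, -1.17 to 0.73 for Nmnat3, -0.69 to 0.017 for Nadsyn1 and -0.35 to 0.23 for Parp1 in endothelial nuclei; -0.11 to 0.074 for Nampt, -0.62 to 0.43 for Nmnat3 and -0.23 to 1.00 for Parp1 in mural nuclei; and -0.37 to 0.12 for Parp1 in macrophages. At the 20% mitochondrial limit the value was -0.0048 for Nmnat1 and 0.016 for Parp1 in fibroblasts, 0.21 for Nmnat1 in endothelial nuclei, 0.048 for Nampt in mural nuclei and 0.028 for Parp1 in macrophages. With classes by marker UMIs it was -0.20 for Nampt in endothelial nuclei, -0.028 for Parp1 in mural nuclei, and 0.089 for Parp1 and -0.27 for Sirt1 in macrophages, and at 1000 UMIs or more Parp1 in macrophages was at 0.0036. Depth limits the members most in mural nuclei and macrophages, where 6 and 5 of the 10 had too few counts.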

Other observations

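Lymphatic endothelial nuclei, 74 and 134 in the cKO and 25 and 72 in the control libraries, were not among the classes fitted. All genes together gave 143113 and 329627 UMIs there in cKO and 41165 and 140452 in control libraries. Nampt gave 9 and 28 UMIs in cKO and 9 and 12 in control libraries. Parp1 gave 5 and 15 in cKO and 6 and 7 in control libraries, and Sirt1 10 and 11 in cKO and 1 and 3 in control libraries. With nuclei thinned to 1000 UMIs, mean shares in cKO and control were 5.10% and 12.7% for Nampt, 3.82% and 7.27% for Parp1, and 4.77% and 0.933% for Sirt1. Nmrk2 gave 1 UMI in cKO 1 and 0 in the other 3 libraries.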
